A study of Homo sapiens with 8 samples.

Results

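The m6A peaks of U2OS cells with a control hairpin were compared with those of U2OS cells with a hairpin against METTL14. The comparison takes every row of the 2 U2OS peak lists, 62345 peaks of the 130622 in the 4 lists of the series. Of these, 32353 peaks on 6426 genes came from the control cells (NC) and 29992 peaks on 6092 genes from the knockdown cells (shMETTL14). Peaks of the 2 lists were partners when their spliced blocks shared 1 bp or more on 1 strand, and a peak with a partner is called kept. NC peaks that lack a partner are called lost, and shMETTL14 peaks that lack one are called gained. These words refer to the lists alone, which do not hold the reads behind a peak.

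U2OS is an established human osteosarcoma line. Both groups were infected with a lentivirus, which carried a control hairpin in NC and a hairpin against METTL14 in shMETTL14. m6A was mapped by MeRIP-seq, in which RNA fragments are pulled down with an antibody against N6-methyladenosine and set against input RNA that was not pulled down. The series has 8 libraries, an input and a pulled-down library for each hairpin in U2OS and in a further osteosarcoma line, 143B, with 1 peak list per group. The number of hairpins and clones is not given in the sources used here. A group is 1 list, so no difference could be set against replicate error, and no test between the groups was made.

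N6-methyladenosine is the most common internal modification of messenger RNA. METTL3 is the catalytic subunit of the writer complex and METTL14 is its RNA-binding partner, while FTO and ALKBH5 remove the mark and YTH-domain proteins read it. In mammalian messenger RNA the mark is concentrated near stop codons, in 3′ UTRs and in long internal exons, and it affects splicing, export, translation and decay.

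METTL14, the targeted gene, had 3 sites in NC and 2 in shMETTL14, where a site is a run of overlapping peaks of the isoforms at 1 place. The NC site over coding exons at chromosome 4, 119610532 to 119613138 (hg19), was lost. The site at the stop codon was kept, from 119631339 to 119631505 in NC and from 119631399 to 119631459 in shMETTL14. Its smallest authors' p-value was 5.6e-06 in NC and 0.0021 in shMETTL14. Read depth is not given, so here and below such pairs of p-values describe each list and do not measure a change. In the 3′ UTR, an NC site at 119631744 to 119631834 was lost and a site at 119632222 to 119632402 was gained. METTL3 had no peak in either U2OS list. Peaks do not measure RNA level, so the knockdown itself was not checked. Of 22 markers of blood, endothelial, epithelial, liver, muscle and nerve cells, 2 had peaks, KRT14 with 1 lost NC peak and RBFOX3 with 8 kept peaks in each list.

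Most NC peaks were found again with shMETTL14. A total of 8688 of 32353 NC peaks were lost, 26.9% (26.4 to 27.3, the exact 95% Clopper-Pearson interval). Among 29992 shMETTL14 peaks 6275 were gained, 20.9% (20.5 to 21.4). These intervals cover counting error only, and a place is listed for each of its isoforms, so peaks of a gene are not independent. Counted as sites, 3647 of 11699 were lost (31.2%) and 2700 of 10822 were gained (24.9%). The lists differ in length. With the 29992 NC peaks of smallest p-value in place of all NC peaks, the lost share was 23.8% and the gained share was 22.8%.

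Most lost and gained peaks lay on genes that still had peaks in the other list. Of the lost peaks, 5619 (64.7%) were on such genes, and of the gained peaks, 4352 (69.4%). Kept peaks give no comparison here, since the rule itself gives them a peak of the other list. Of the kept NC peaks, 96.5% had a partner on the same transcript, and for kept shMETTL14 peaks this share was not counted. Among the 5337 genes in both lists, 2917 had no site lost or gained, 950 had only losses, 689 had only gains and 781 had both. In 313 of them every NC site was lost although the gene had an shMETTL14 peak elsewhere. The number of sites was lower with shMETTL14 on 1230 of these genes, equal on 3154 and higher on 953. A further 1089 of 6426 NC genes had no shMETTL14 peak (16.9%), and 755 of 6092 shMETTL14 genes had no NC peak (12.4%). Genes found in NC only mostly had few sites: 905 had 1 site, 146 had 2 and 38 had 3 or more. Genes found in shMETTL14 only were alike in this, with 650, 88 and 17 in the same order.

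The rule joined peaks that mostly overlapped by far more than 1 bp. For 96.3% of the kept NC peaks the best partner covered at least 50% of the shorter peak, and for 76.1% it covered all of it. Just inside the rule were 253 kept NC peaks (1.07%) with a best overlap of 1 to 10 bp, whose median p-value was 3.7e-04 and median fold enrichment 3.42. Just outside it were 805 lost peaks (9.27%) within 100 bp of an shMETTL14 peak, with a median p-value of 3.9e-04 and a median fold enrichment of 3.37. Among 20538 peaks that paired with exactly 1 peak of the same transcript, the median width was 268 nt in NC and 241 nt in shMETTL14. The NC peak was the wider in 47.3% of these pairs, the shMETTL14 peak in 37.0%, and the widths were equal in 15.7%.

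Whether a peak had a partner varied strongly with its p-value in its own list. In decile 1 of the NC list, that of the smallest p-values, 0.185% of peaks were lost, in decile 5 16.1%, and in decile 10 64.8%. The gained share was 0% in decile 1 of the shMETTL14 list, 11.2% in decile 5 and 57.2% in decile 10. At p-values of 1e-05 or smaller, 1251 of 17728 NC peaks were lost (7.06%) and 833 of 16794 shMETTL14 peaks were gained (4.96%). At 1e-10 or smaller, 61 of 9002 NC peaks were lost (0.678%) and 33 of 8592 shMETTL14 peaks were gained (0.384%). At 1e-20 or smaller, 6 of 4187 NC peaks were lost, all at a single site of GNAI2, and 0 of 3956 shMETTL14 peaks were gained. The median p-value was 3.1e-04 for lost and 2.9e-08 for kept NC peaks, and it was 3.4e-04 for gained and 6.9e-08 for kept shMETTL14 peaks.

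**Figure D1:**
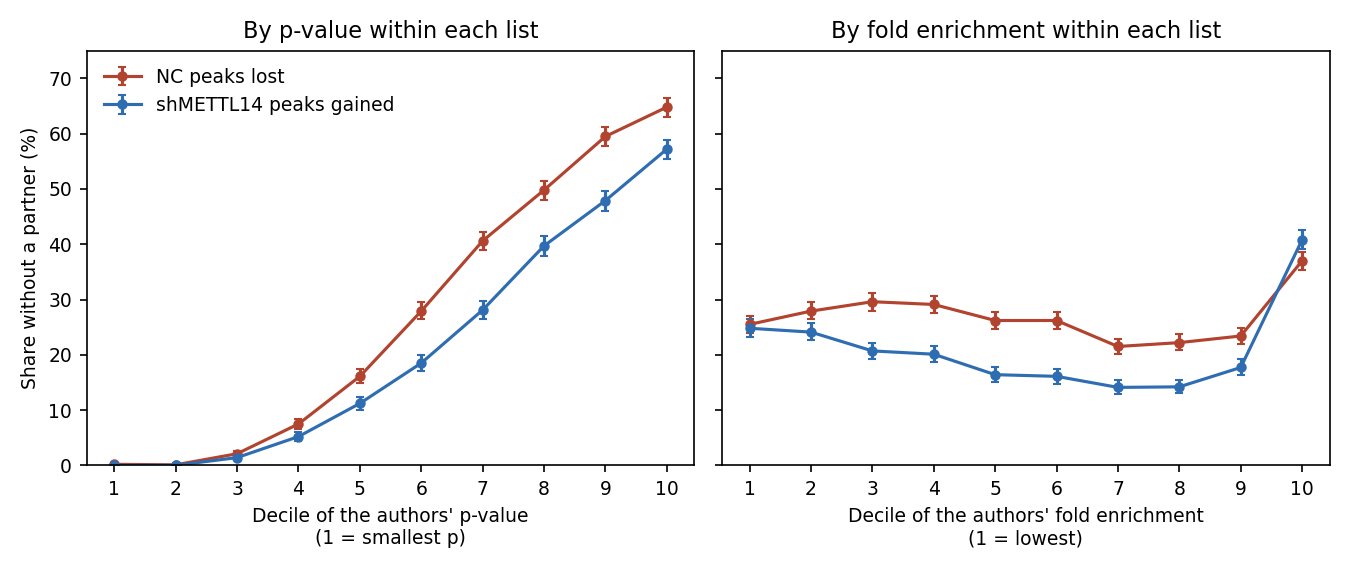
Share of NC peaks lost and of shMETTL14 peaks gained (%, vertical axis) in deciles of each list, ranked by the authors' p-value at left and by their fold enrichment at right; bars are exact 95% intervals for counting error. The share climbs with p-value from 0.185% to 64.8% in NC, while by fold enrichment it stays between 21.5% and 29.6% in NC up to the highest decile, where it is 37.0%.

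Fold enrichment separated the peaks much less than p-value did. The median was 3.53 for lost and 3.62 for kept NC peaks, and 3.51 for gained and 3.55 for kept shMETTL14 peaks. The share without a partner was highest at the top of the fold-enrichment scale, where 37.0% of the highest decile of NC peaks were lost and 40.8% of the highest decile of shMETTL14 peaks were gained. Peak width separated the peaks as p-value did. Lost NC peaks had a median width of 120 nt against 268 nt for kept peaks, and gained peaks 120 nt against 241 nt. The lost share was 61.6% in the narrowest quintile of NC peaks and 1.56% in the widest. For gained peaks these shares were 52.1% and 0.533%. A wider peak meets a rule of 1 bp more easily, and the parts of width and p-value were not tested apart.

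The regions of the transcript differed in how many of their peaks were lost. Only 95 NC peaks ran from the 5′ UTR to the 3′ UTR, and 2 of them were lost (2.11%, 0.256 to 7.40). Among the 5 larger regions, peaks across the stop codon, where m6A is known to concentrate, had the lowest share, 578 of 5068 (11.4%). Peaks across the start codon followed with 308 of 1590 (19.4%), then coding peaks with 4734 of 17339 (27.3%). In the 3′ UTR 2705 of 7355 peaks were lost (36.8%), and in the 5′ UTR 361 of 906 (39.8%). Gained peaks had the same order of regions: 0 of 90 from the 5′ UTR to the 3′ UTR, 9.26% across the stop codon, 13.9% across the start codon, 21.0% in coding sequence, 29.5% in the 3′ UTR and 30.6% in the 5′ UTR. Stop codon peaks thus made up 15.7% of both lists, 19.0% of the kept NC peaks and 6.65% of the lost ones.

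The regions also differed in width and p-value. Median NC widths of the larger regions ran from 150 nt in the 5′ UTR to 328 nt across the stop codon. Within quintiles of the NC list by p-value the regions lay closer together, though width was not held equal. In quintile 3 the lost share was 19.9% across the stop codon, 20.4% in coding sequence, 22.8% in the 5′ UTR, 25.4% across the start codon and 26.0% in the 3′ UTR. In quintile 5 it was 56.2% across the stop codon and 65.6% in the 3′ UTR, with intervals that did not meet (50.6 to 61.7 and 63.4 to 67.7). The median widths of these peaks were 120 nt and 90.0 nt in that order. Start codon peaks were highest in quintile 2, where 49 of 386 were lost (12.7%, 9.54 to 16.4) against 3.68% at the stop codon, 4.10% in coding sequence, 5.41% in the 3′ UTR while in the 5′ UTR 6 of 120 were lost (1.86 to 10.6). The gained share of start codon peaks in quintile 2 of the shMETTL14 list was 2.93%, inside the range of 2.03% to 3.95% of these regions.

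**Figure D2:**
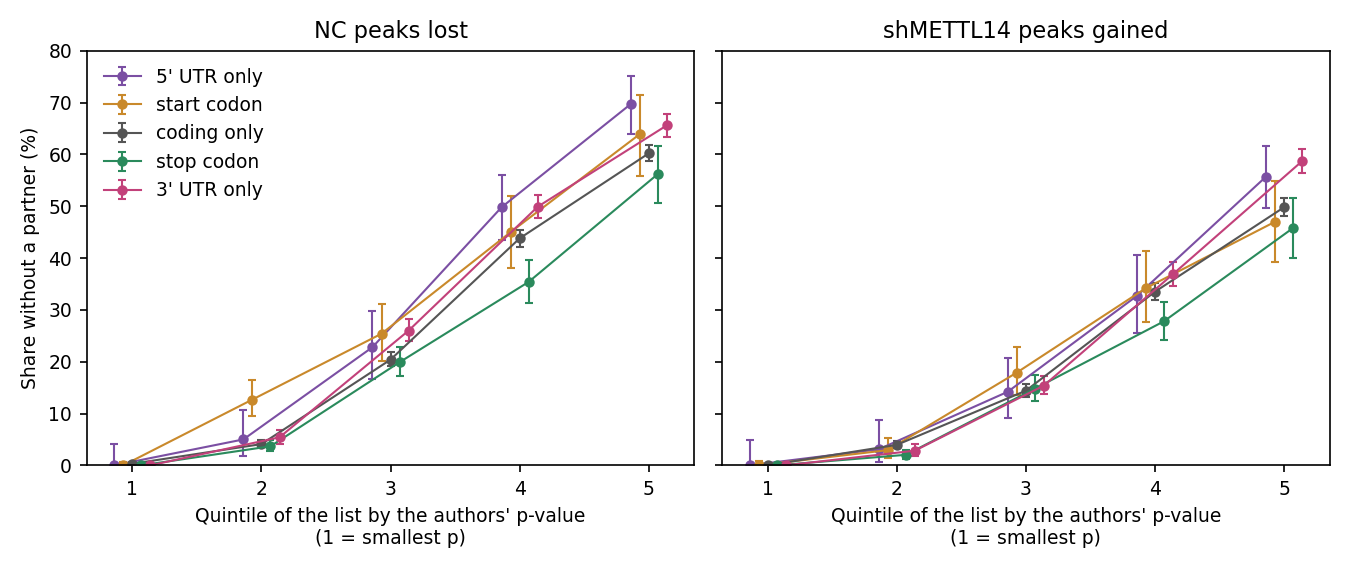
Share of NC peaks lost (left) and of shMETTL14 peaks gained (right) in each transcript region (%, vertical axis), by quintile of the list in order of the authors' p-value; bars are exact 95% intervals for counting error. The 5 larger regions are drawn; all climb with p-value, and the stop codon is lowest in quintiles 4 and 5 of both lists.

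Coding peaks over more exons had lower shares without a partner and also smaller p-values. The lost share was 37.3% for coding peaks within 1 exon, 29.0% over 2 exons and 7.78% over 3 or more. For gained peaks these shares were 27.7%, 24.9% and 6.90%. The median NC p-value was 6.9e-05 within 1 exon, 2.1e-05 over 2 and 4.0e-11 over 3 or more. Median NC widths were 178, 179 and 330 nt in the same order. Within p-value quintiles this order did not always hold. In quintile 3 of the NC list 22.7% of peaks within 1 exon, 24.1% over 2 and 11.9% over 3 or more were lost, and in quintile 5 63.6%, 51.1% and 55.2%. In quintile 3 of the shMETTL14 list the gained shares were 13.3%, 16.0% and 14.9%. By chromosome the lost share ran from 17.7% on chromosome 13 to 33.1% on chromosome 9.

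The GNAI2 site had the smallest p-value of all lost peaks. GNAI2 encodes an inhibitory G protein alpha subunit. Its 6 lost peaks lay over coding exons at chromosome 3, 50294494 to 50295102 (hg19), with a smallest p-value of 4.0e-34 and a fold enrichment of 15.1 in that peak. A coding site upstream, from 50273756 to 50289908, was kept, with a smallest p-value of 2.0e-19 in NC and 6.3e-16 in shMETTL14. A 3′ UTR site of 3 peaks was also lost, with a p-value of 0.0010. The lost coding site had no peak in either 143B list.

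Among genes with peaks in NC only, those with the smallest p-values were SLC39A9, SLC2A12, CXCL14, RAB30, TEF, FAM198B, PRICKLE1, C14orf93, IMP4 and FAIM. SLC39A9, a zinc transporter, had 1 site of 3 peaks in its 5′ UTR, at chromosome 14, 69865646 to 69866037, with a p-value of 5.0e-14. SLC2A12, a glucose transporter, had 4 sites in NC and 0 in shMETTL14: 3 coding sites with p-values of 6.5e-05, 4.3e-06 and 1.4e-08, and 1 at the stop codon with 1.3e-12. CXCL14, a chemokine, had 2 sites in its 3′ UTR with p-values of 2.2e-06 and 3.2e-12. SLC2A12 and CXCL14 thus had no site left in the shMETTL14 list, where NC had several.

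RAB30, a small GTPase of the Golgi, had 5 peaks at its stop codon in NC, with a smallest p-value of 4.0e-12 and a fold enrichment of 6.28. TEF, a transcription factor of the PAR bZIP family, had a stop codon site with a p-value of 5.0e-12 and a 3′ UTR site with 6.0e-08. PRICKLE1, a planar cell polarity protein, had 11 peaks at 3 coding sites, the strongest with a p-value of 1.3e-11. FAM198B had 7 peaks at 1 coding site. In 143B the 4 genes SLC2A12, CXCL14, FAM198B and PRICKLE1 had no peak in either list. SLC39A9, RAB30, C14orf93, IMP4 and FAIM had peaks in both 143B lists, and TEF in the 143B NC list only.

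Genes with peaks in shMETTL14 only were led by GRPEL1, RPL28, CSTF2, FH, PTPRM, SH2D5, DUSP1, IFNGR2, PSMC3IP and FNDC3B. GRPEL1, a cochaperone of mitochondrial HSP70, had 1 peak over 3 coding exons with a p-value of 6.3e-13. CSTF2, a subunit of the factor that cleaves pre-mRNA before polyadenylation, had 1 coding site with 2.0e-11, and FH, the fumarase of the citric acid cycle, had 1 stop codon peak with 5.0e-11. PTPRM, a receptor tyrosine phosphatase, had 10 peaks at 2 coding sites, with p-values of 1.0e-10 and 6.2e-05. DUSP1, a phosphatase of MAP kinases, had 1 coding peak with 1.4e-09. RPL28 had 4 sites. It encodes a ribosomal protein, and reads shared with its relatives leave its peaks uncertain. Of these 10 genes, 7 had peaks in both 143B lists, PTPRM in the 143B shMETTL14 list only, IFNGR2 in the 143B NC list only and FNDC3B in neither.

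The strongest unpaired peak of a region lay on a gene that kept other sites in some cases, such as MYO10. In others, such as TFRC and RNPS1, the gene kept none. MYO10, an unconventional myosin of filopodia, lost a start codon peak with a p-value of 5.0e-12 and a 3′ UTR peak with 2.2e-07. Its 2 coding sites were kept, with smallest p-values of 3.2e-33 and 2.5e-11 in NC. TFRC, the transferrin receptor, had 4 peaks at 1 site in NC, all lost, at a place with peaks in both 143B lists. RNPS1, a splicing regulator that joins the exon junction complex, had 30 gained peaks at 1 site and none in NC, and 20 and 32 peaks in 143B NC and 143B shMETTL14.

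NFAT5, the transcription factor of the response to osmotic stress, showed losses and gains on the same transcript. A coding site at chromosome 16, 69725925 to 69726186, was gained with a p-value of 5.0e-13, and a 3′ UTR site was gained with 2.8e-07. A coding site and the site over the stop codon were kept. In NC a more upstream coding site with a p-value of 1.5e-04 and 2 sites of the 3′ UTR with 4.0e-05 and 7.6e-04 were lost. VPS26A, a retromer subunit, had 6 lost peaks from the start codon on and 6 gained peaks up to the stop codon, at separate places.

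**Figure D3:**
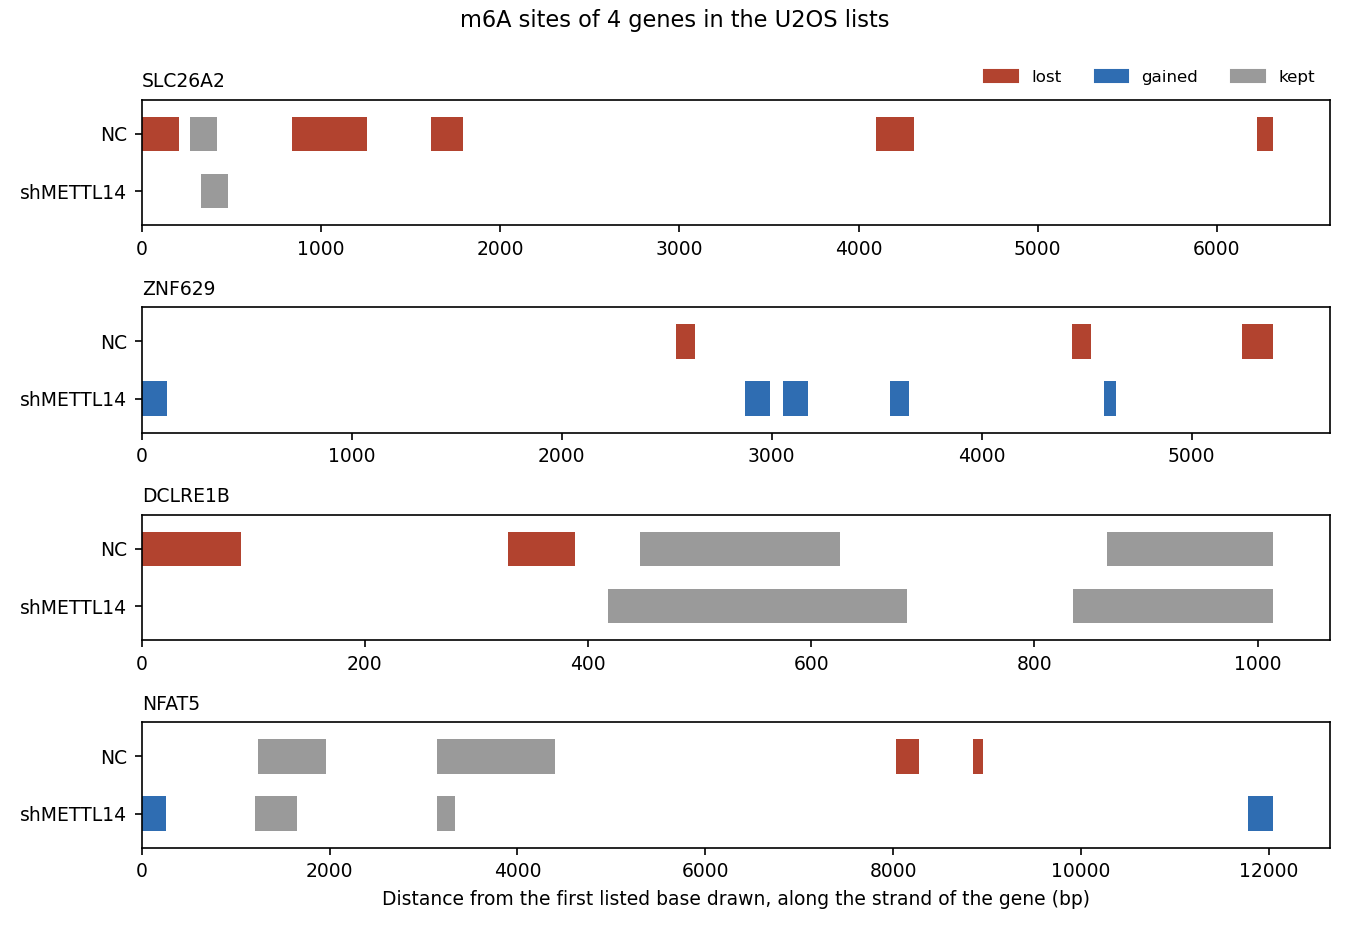
Listed sites of SLC26A2, ZNF629, DCLRE1B and the 3′ part of NFAT5 in NC and shMETTL14, as distance along the gene in bp (horizontal axis); red is lost, blue gained and grey kept, and the genes were picked to draw after their values were seen. SLC26A2 has 5 lost sites and 1 kept, ZNF629 has 3 lost and 5 gained, and no site of ZNF629 overlaps the other list.

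Among the genes with the most lost sites were very long ones that kept many others. MACF1, a giant linker of actin and microtubules, lost 7 of 15 sites and gained 2 of 10. SYNE2, a nesprin of the nuclear envelope, lost 6 of 14 and gained 3 of 9. DST, a relative of MACF1, lost 6 of 22 and gained 3 of 23, so its number of sites hardly differed.

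SLC26A2 and MN1 differed from these, since both went from 6 sites to 1. SLC26A2 is a sulfate transporter that cartilage and bone need for sulfated proteoglycans. Its lost sites had p-values of 4.0e-11 and 1.5e-06 in coding sequence and 3.6e-07, 1.9e-04 and 3.3e-04 in the 3′ UTR. The site that was kept had p-values of 1.0e-04 in NC and 0.0031 in shMETTL14. MN1, a transcriptional coregulator, lost 5 sites with p-values of 6.9e-08 to 0.0025. Its kept coding site, on chromosome 22, ran from 28147023 to 28193019 over 2 exons with a width of 331 nt and a p-value of 5.0e-18 in NC. With shMETTL14 that site was 61 nt wide, with a p-value of 0.0017.

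Among the genes with the most gained sites were RPAP2, PEAK1, ZNF629, DNMBP and FGF5, with 5 each. RPAP2, a phosphatase of the RNA polymerase II tail, gained 5 of 11 sites and lost 4 of 10, and all its shMETTL14 sites lay in the 3′ UTR. DNMBP, an activator of CDC42, had 0 sites in NC and 5 in shMETTL14, with p-values of 8.5e-05 to 5.4e-04. FGF5, a fibroblast growth factor, likewise had 0 and 5 sites, with p-values of 5.1e-04 to 0.0032. DNMBP and FGF5 had peaks in both 143B lists. ZNF629 is a zinc finger gene, a family whose members can share reads, and its sites are uncertain.

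Other genes with many sites were kept whole. NSD1, which methylates lysine 36 of histone H3, had 9 sites in each list and none lost or gained. MKI67, the proliferation marker Ki-67, and YLPM1 each had 7 sites in each list, again all kept. ARID1B, a subunit of the BAF remodeller, had 7 sites in NC and 8 in shMETTL14, all of them overlapping the other list.

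Lists of genes with shared roles were set beside the shares over all sites, 31.2% lost and 24.9% gained. Over all 7181 genes with a peak in either list, 2319 (32.3%) had fewer sites with shMETTL14, 3154 (43.9%) as many and 1708 (23.8%) more. A list's median p-value is given where the interval of its lost share leaves out 31.2% and for some other lists, because the lost share moved with p-value; the part of p-value in these differences was not tested. The NC list as a whole had 3.5e-06 as the upper end of p-value decile 5.

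Hedgehog genes had the highest lost share of the 16 lists, 40 of 71 peaks (56.3%, 44.0 to 68.1) and 13 of 25 sites (52.0%, 31.3 to 72.2). Their median NC p-value was 1.5e-05. With 1 transcript per gene their lost share was 45.5% (24.4 to 67.8), an interval that includes the 31.1% of all peaks in that setting. PTCH1, the receptor for Hedgehog ligands, had 16 NC peaks at 2 sites, all lost, and 2 gained peaks. GPR161, a receptor that restrains the pathway at the cilium, had 8 NC peaks at its stop codon and none with shMETTL14. GLI3, a transcription factor of the pathway, lost 2 of 3 sites and kept the 1 at the stop codon. Of 14 genes with peaks, 8 had fewer sites with shMETTL14, 5 as many and 1 more. The gained share was below that of all peaks by peaks (7 of 36, 19.4%, against 20.9%) and above that of all sites by sites (6 of 18, 33.3%). SPOP, a ubiquitin ligase adaptor, kept its site.

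Heparan and chondroitin sulfate genes, a list not confined to synthesis, lost 24 of 61 sites (39.3%, 27.1 to 52.7). They gained 7 of 45 (15.6%, 6.49 to 29.5), with a median NC p-value of 2.2e-06. Both intervals include the share over all sites. SULF1, which removes sulfate from heparan sulfate outside the cell, had 12 peaks at 3 sites in NC and none with shMETTL14, with p-values of 6.3e-06, 1.4e-05 and 7.6e-04. NDST1, an N-sulfotransferase, lost 2 sites of its 3′ UTR and kept its stop codon site, at 1.0e-30 in NC and 1.6e-31 in shMETTL14. CHSY3, a chondroitin synthase, had 2 sites in NC and 0 with shMETTL14. EXT2, a heparan sulfate polymerase, kept both sites.

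U2OS is known to maintain its telomeres by recombination rather than by telomerase. Telomere maintenance genes lost 13 of 36 sites (36.1%, 20.8 to 53.8) and gained 2 of 24 (8.33%, 1.03 to 27.0), with a median NC p-value of 3.1e-05. Both intervals include the share over all sites, and the lost share was near it. Among 20 genes with peaks, 11 had fewer sites with shMETTL14, 8 as many and 1 more. ZNF827, which binds telomeres in cells of this kind, lost 2 of 4 sites, both in coding sequence. DCLRE1B, the nuclease Apollo, lost 2 of 4, and NHP2, a protein of the telomerase ribonucleoprotein, had 1 coding site of 5 peaks in NC only, with a p-value of 4.1e-09. NR2C2, a nuclear receptor found at such telomeres, kept both sites.

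Nucleoporins and nuclear transport factors had fewer sites lost than gained. They lost 12 of 72 sites (16.7%, 8.92 to 27.3) and gained 24 of 83 (28.9%, 19.5 to 39.9), with a median NC p-value of 1.1e-08. The gained share was near that of all sites, 24.9%. At the level of peaks, 17 of 162 were lost (10.5%) and 58 of 203 gained (28.6%). RANBP2, a giant nucleoporin of the cytoplasmic filaments, had 7 sites in NC and 9 in shMETTL14, with 2 lost and 4 gained. The 4 gained sites of RANBP2 had p-values of 2.8e-05 to 7.2e-04, while its strongest kept site had 2.0e-40 in NC. NUP153, a nucleoporin of the nuclear basket, had 1 site in NC and 3 in shMETTL14.

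Cholesterol and SREBP genes lost 4 of 18 sites (22.2%) and gained 9 of 22 (40.9%, 20.7 to 63.6), with a median shMETTL14 p-value of 1.2e-04. With so few sites, the intervals include the shares over all sites. CYP51A1, a sterol demethylase, had 1 gained peak. SQLE, squalene epoxidase, and SCD, a fatty acid desaturase, each went from 2 sites to 1. Of 17 genes with peaks, 5 had fewer sites with shMETTL14, 4 as many and 8 more.

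Ion channel genes had shares above those of all sites in both directions, though the intervals for sites lost and gained included them, with 20 of 49 sites lost (40.8%, 27.0 to 55.8) and 18 of 49 gained (36.7%, 23.4 to 51.7). By peaks the order of the shares was the other way, 40.2% lost and 46.4% gained. CACNA1A, a voltage-gated calcium channel, lost 4 of 5 sites, and its kept coding site had p-values of 1.0e-05 in NC and 0.0039 in shMETTL14. KCNQ5, a potassium channel, kept its stop codon site and gained a coding site with 6.6e-08 and a 3′ UTR site with 1.4e-04. Median p-values of the channel genes were 2.8e-05 in NC and 1.3e-04 in shMETTL14.

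Hypoxia and glycolysis genes lost 13 of 39 sites (33.3%) and gained 4 of 31 (12.9%, 3.63 to 29.8), the former near the share over all sites. At p-values of 1e-05 or smaller the order of the peak shares turned, from 24.0% lost and 13.2% gained to 5.06% (1.40 to 12.5) and 7.06% (2.63 to 14.7). These last 2 intervals overlap widely, so the order at 1e-05 is not settled. Of 26 such genes with peaks, 8 had fewer sites with shMETTL14, 18 had as many and 0 had more, on the same basis as the tally over all genes. EGLN2, an oxygen-sensing prolyl hydroxylase, had 3 NC peaks and none with shMETTL14. GPI, a glycolytic isomerase, lost 2 of 3 sites and gained 1 of 2. PKM, pyruvate kinase, kept its 2 sites of 15 peaks in each list.

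Autophagy and lysosome genes lost 16 of 45 sites (35.6%) and gained 11 of 40 (27.5%), both near the shares over all sites. Of 35 with NC peaks 10 had none with shMETTL14, against 16.9% of all NC genes. Of 26 with shMETTL14 peaks 1 had none in NC, against 12.4% of all shMETTL14 genes. These counts are small, and the differences were not tested. GABARAPL2, AMBRA1 and ULK1, all of them parts of autophagosome formation, were among the genes with NC peaks only, with 3, 6 and 1 peaks. VPS41, a subunit of the HOPS tethering complex, had 2 sites in shMETTL14 only.

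Proteasome genes kept most of their peaks. They lost 6 of 91 peaks (6.59%, 2.46 to 13.8), against 26.9% of all peaks. By sites 5 of 31 were lost (16.1%, 5.45 to 33.7) and 5 of 31 gained (16.1%, 5.45 to 33.7). Both site intervals include the shares over all sites. These genes had the smallest median NC p-value of the lists, 6.3e-14. By peaks 15 of 94 were gained (16.0%), below the 20.9% of all peaks. At p-values of 1e-05 or smaller 8.70% were (3.26 to 18.0), an interval that includes the 4.96% of all. The list was made by name and holds PSMC3IP, a gene of meiotic recombination and no proteasome subunit. Its 4 peaks were gained and are among the 15, and the shares were not counted without it. Genes of the unfolded protein and integrated stress response lost 10 of 63 sites (15.9%, 7.88 to 27.3) and gained 12 of 63 (19.0%), with a median NC p-value of 5.9e-07. Their gained share of peaks was 15.7%, and 5.75% (1.89 to 12.9) at 1e-05 or smaller, an interval that includes the 4.96% of all peaks. EIF2AK3, the stress kinase PERK, had 3 NC peaks and none with shMETTL14, PPP1R15A, a regulatory subunit that reverses eIF2 phosphorylation, gained 2 sites, and ATF4, a transcription factor of this response, kept its site.

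Mediator and RNA polymerase II genes lost 22 of 118 sites (18.6%, 12.1 to 26.9) and gained 19 of 120 (15.8%, 9.81 to 23.6), with a median NC p-value of 1.9e-08. Their peak shares, 19.5% lost and 19.4% gained, became 6.32% and 10.1% at 1e-05 or smaller, where the gained share was above that of all peaks. TAF3, a subunit of TFIID, lost 2 of 4 sites, and MED15, a Mediator subunit, went from 1 site to 3. Nuclear receptors and coregulators lost 29 of 93 sites (31.2%) and gained 17 of 84 (20.2%), near the shares over all sites. At 1e-05 or smaller their peak shares turned from 26.6% lost and 19.1% gained to 1.59% (0.193 to 5.62) and 10.5% (6.14 to 16.5). LCORL lost all 4 of its NC sites, and NCOA6, a coactivator, kept its 4 NC sites and gained 3.

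Interferon and innate sensing genes lost 15 of 56 sites (26.8%) and gained 9 of 51 (17.6%), with intervals that include the shares over all sites. At 1e-05 or smaller their peak shares turned from 26.4% lost and 15.3% gained to 5.63% (1.56 to 13.8) and 7.69% (2.54 to 17.0), with intervals that overlap widely. TRAF6, a ubiquitin ligase of Toll-like receptor signalling, had 4 peaks at 2 sites in NC only, and ADAR, the adenosine deaminase of double-stranded RNA, kept every site. The genes of the m6A machinery lost 7 of 36 sites (19.4%, 8.19 to 36.0) and gained 5 of 34 (14.7%, 4.95 to 31.1). Both intervals include the shares over all sites, and the median NC p-value was 1.3e-10. All 16 with NC peaks had shMETTL14 peaks too, while 16.9% of all NC genes had none. YTHDF1 lost a start codon site with a p-value of 2.8e-08, and YTHDF2 gained a coding site with 1.4e-06. KIAA1429, a writer subunit, lost 1 of 2 coding sites.

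**Figure D4:**
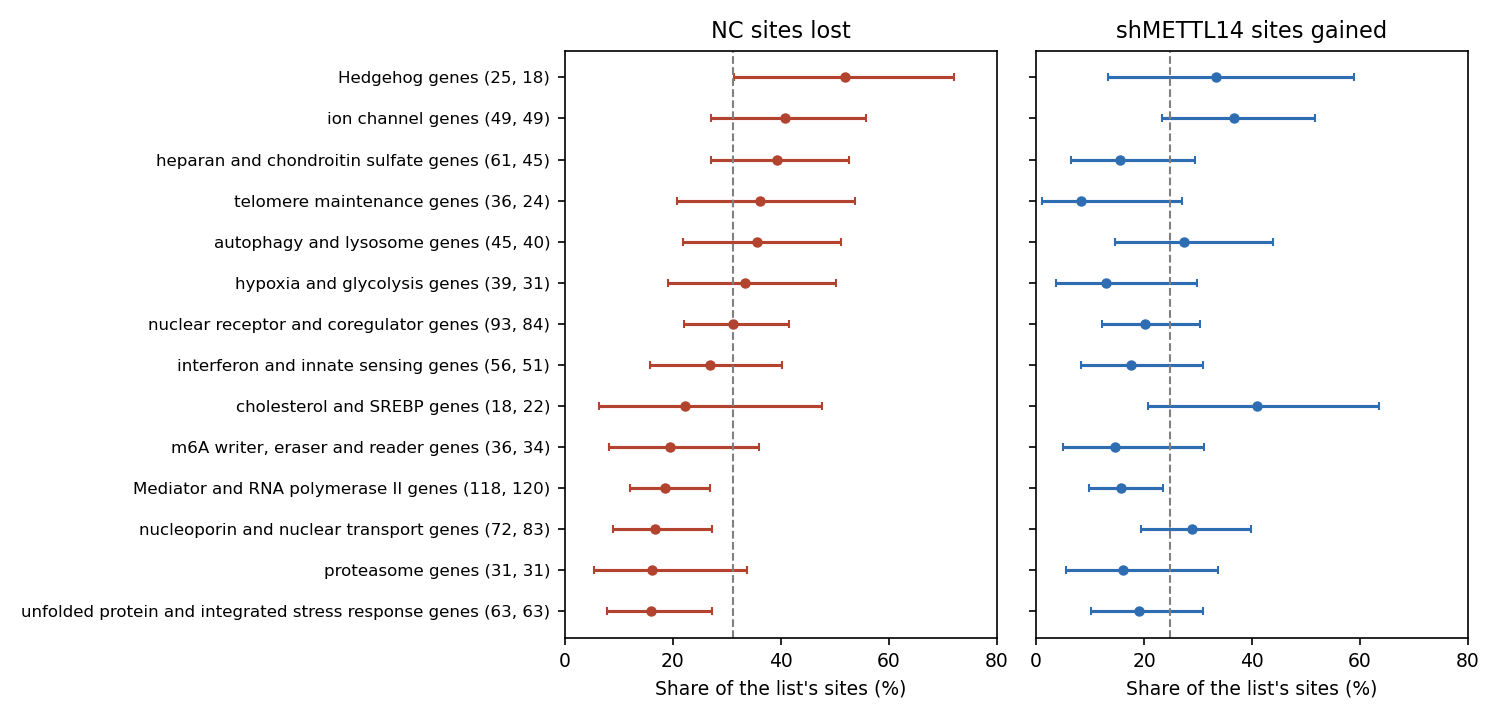
Share of NC sites lost (left) and of shMETTL14 sites gained (right) for gene lists of shared role (%, horizontal axis), with the numbers of NC and shMETTL14 sites in brackets; bars are exact 95% intervals for counting error and dashed lines mark all sites, 31.2% and 24.9%. Not every list is drawn, and the markers of other cell types, with 3 and 2 sites, are left out. Most intervals include the dashed line; of the lists drawn, Hedgehog has the highest lost share, 52.0%, and telomere the lowest gained share, 8.33%.

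The 143B lists, which the rule did not use, were then searched for the U2OS peaks. Of the lost peaks, 3434 (39.5%) overlapped a 143B NC peak and 3744 (43.1%) a 143B shMETTL14 peak. For the kept NC peaks these shares were 80.9% and 86.1%. Of the gained peaks, 2481 (39.5%) overlapped a 143B NC peak and 3101 (49.4%) a 143B shMETTL14 peak, against 80.7% and 85.5% of the kept shMETTL14 peaks. By region the order of the 143B lists varied: lost peaks at the stop codon were found in 143B NC in 51.7% and in 143B shMETTL14 in 47.1%, those in coding sequence in 39.2% and 44.1%. Of the lost peaks, 27.3% were in both 143B lists, 12.2% in 143B NC only, 15.8% in 143B shMETTL14 only and 44.7% in neither. For gained peaks these shares were 30.0%, 9.50%, 19.4% and 41.1% in that order. The 143B shMETTL14 list is the longer of that line, with 35195 peaks against 33082.

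The kept peaks were also found more often within quintiles of equal p-value rank, in which width was not held equal. In quintile 2 of the NC list 59.4% of lost and 87.9% of kept peaks overlapped a 143B NC peak, and in quintile 5 33.7% and 56.5%. Quintile 1 held 9 lost peaks, too few for a useful share.

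**Figure D5:**
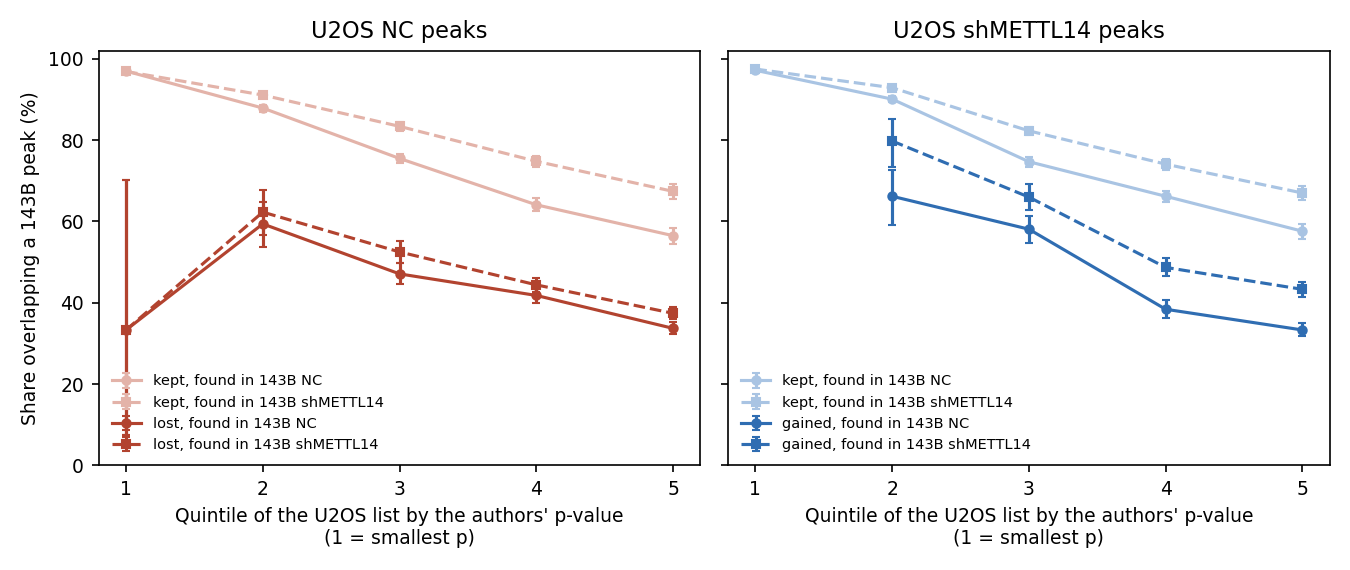
Share of U2OS peaks that overlap a 143B peak (%, vertical axis) by quintile of the U2OS list in order of the authors' p-value, for NC peaks at left and shMETTL14 peaks at right; circles are the 143B NC list, squares the 143B shMETTL14 list, and bars exact 95% intervals for counting error. Kept peaks lie above lost and gained peaks in each quintile that has both.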

How the data were processed

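The submitters' processing notes list FastQC 0.11.5, HISAT2 and Trimmomatic and the human build hg19. For the peak caller and its threshold, the annotation, strandedness and read depth, nothing is given in the sources used here. Each deposited list has 13 columns. Per the file headers, each peak carries a p-value and a fold enrichment, a linear ratio made by the authors. Both were used inside their own list, for ranks, filters and description. The exception is the alternative at 1e-05, which applies the same p-value to both lists. Its partners were still sought among all peaks of the other list, whatever their p-value. Peak regions and spliced blocks were likewise deposited. Antisense and overlapping genes cannot be told apart with certainty, nor can near-identical families. Coordinates are printed from 1.

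Overlaps used bedtools 2.31.1 on spliced blocks, by strand, with scipy 1.17.1, pandas 2.3.3 and numpy 2.4.6 under Python 3.11.15, and matplotlib 3.10.9 for figures. Groups came from sample titles. Overlap counting was tested on simulated data. The members, the 16 gene lists and the naming rule were chosen with earlier results of these data known. Text names METTL14, METTL3 and MN1; the 10 genes of smallest p-value in each list only; the 6 with most lost, gained or kept sites; the smallest p-value per region; and up to 3 lost, 3 gained and 1 kept member per gene list, on chromosomes 1 to 22 and X. Some genes and 1 gene list that the rule selects are not reported here. The 7 alternatives changed the overlap, window, p-value, number of peaks, transcripts, blocks and unit. The DRACH motif was planned and not run, since no hg19 genome was used here.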

Additional observations from a re-analysis of the deposited data

Results flagged for a closer look

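The number of peaks moved in opposite directions in the lines: the shMETTL14 list held 0.927 peaks per NC peak in U2OS and 1.06 in 143B. The difference was not tested, with 1 list per group.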

How the results depend on the processing

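Under the 7 alternatives the differences between 3′ UTR and stop codon and in peaks found in the 143B NC list kept their sign. Other regions and the 143B shMETTL14 list were not taken through the alternatives. Gene lists did not all keep the order of their shares: at p-values of 1e-05 or smaller the order of lost and gained peak shares turned in 4 of 16 lists. The gained share changed sides of that over all peaks in 7. Several of these changes rest on few peaks, with wide intervals that overlap or include the share over all peaks. The share of NC peaks lost, 26.9%, was 29.6% with 50% overlap, 24.4% within 100 bp, 7.06% at p-values of 1e-05 or smaller, 23.8% with equal numbers of peaks, 31.1% with 1 transcript per gene and 31.2% for sites. The share of shMETTL14 peaks gained, 20.9%, was 23.7%, 18.4%, 4.96%, 22.8%, 24.8% and 24.9% in the same order. The lost share in the 3′ UTR minus that at the stop codon, 25.4 percentage points, was 27.0 with 50% overlap, 22.9 within 100 bp, 6.88 at 1e-05 and 22 with equal numbers. The gained difference, 20.3, was 21.9, 17.8 and 3.78 under the first 3 of these, 21.7 with 1 transcript and 22.1 for sites. Kept minus lost peaks found in 143B NC, 41.4 points, was 44.0, 39.9 and 39.4 with 50% overlap, within 100 bp and at 1e-05, and kept minus gained, 41.1, was 43.3, 38.7 and 28.9. Genes in NC only numbered 179 and those in shMETTL14 only 124 at 1e-05, against 1089 and 755. The smaller counts are of genes with a peak at 1e-05 or smaller and no peak of any p-value in the other list. Apart from fewer peaks entering, the cause was not tested. Of 112 list values for lost shares 89 stayed within the counting interval, and of 112 for gained shares 91. Most values outside it were those at p-values of 1e-05 or smaller, where the shares of most lists left it. The lists carry no counts, so what depth limits is unknown. No paired analysis was possible because each group has 1 list.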
